A study of Homo sapiens with 4 samples.

Results

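NF-kB is a family of dimeric transcription factors built from Rel proteins, and 4 of its subunit genes are described here. NFKB1 encodes the precursor p105, which is cut to p50, and REL encodes c-Rel, a subunit prominent in B cells. NFKB2 encodes p100, which is cut to p52, and RELB encodes the usual partner of p52. All probes whose symbol in the platform's probe table was NFKB1, REL, NFKB2 or RELB were taken, which gave 17 probes of 4 genes among the 4604 genes named on the array. They comprised 3 probes of NFKB1, 4 of REL, 7 of NFKB2 and 3 of RELB.

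In the classical arm of the pathway, the IkB kinase complex, made of IKKa, IKKb and a regulatory subunit, marks IkB proteins for destruction and frees dimers of p50 with RelA or c-Rel. In the alternative arm, receptors such as the BAFF receptor and CD40 act through the kinase NIK and IKKa, p100 is processed, and p52 enters the nucleus with RelB. Several subunit genes are themselves NF-kB targets, so their transcripts are often read as part of the pathway's output. Activated B-cell type diffuse large B-cell lymphoma, from which the human line OCI-Ly3 derives, depends on constant NF-kB activity.

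The study's title asks whether IKKa can sustain classical signalling while IKKb is inhibited. OCI-Ly3 cells in which doxycycline (20 ng/ml) switched on a short hairpin RNA directed at CHUK, the gene of IKKa, were compared with cells without doxycycline on 4 two-colour arrays. Doxycycline was given for 2 days on one array and 3 days on another, with no inhibitor in either channel, and the labels call the reference cells of these arrays untreated. Both channels of the remaining 2 arrays held cells given MLN120b, an IKKb inhibitor, at 12.5 uM: 3 h of it after 2 days of doxycycline, or 24 h of it within 3 days of doxycycline. These are called the 2-day, 3-day, 3 h inhibitor and 24 h inhibitor arrays. The hairpin's sequence and whether the line is 1 clone are not stated in the labels. None of the 4 arrays holds doxycycline with a control hairpin, so an effect of doxycycline itself cannot be told apart from that of the IKKa hairpin. None sets inhibitor against no inhibitor, so the effect of MLN120b alone on these genes was not measured.

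Each value is the log2 ratio of the channels of one array, in the likely direction of doxycycline over no doxycycline, and a value below 0 then means less transcript in induced cells. The file states neither the base nor the direction. Were the direction turned, each value below would change its sign, and "lower" would read "higher". Ratios carry no level, so the subunits cannot be ranked by abundance, and in bulk RNA fewer cells of a kind and less RNA per cell cannot be told apart. CHUK lay below 0 on every array (-0.59, -0.87, -1.30 and -1.01 in the order above), a sign that helped to choose the direction. The 4 arrays correlated positively over probes, with Pearson r from 0.364 to 0.717. The distribution over the 3589 genes with a value on all 4 arrays had its median between -0.06 and -0.0073 on each array. Markers gave no level either: 7 of 8 listed B cell genes were measured, with means of -0.48 to 0.20 with inhibitor, against 0.042 to 0.24 for 4 of 5 T cell genes and -0.31 to 0.61 for 3 of 5 myeloid genes. None of these markers passed the test described below, and their part in the results was not tested.

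The RefSeq promoter table (GRCh38.p14, 250 bases before to 50 after a start site) held windows for 3 of the 4 genes, 1 for REL, 2 for NFKB1 and 3 for NFKB2. They are shown because the subunit genes are known NF-kB targets, and because NFKB1 and REL had similar ratios here while NFKB2 did not. The windows were searched for the kB consensus on both strands, with overlapping matches allowed. A match stood in the REL window, in 1 of the 2 NFKB1 windows and in 2 of the 3 NFKB2 windows, against 11.3% of the 35116 windows of this length. The stretches below are the plus strand around the matches of 1 window per gene, which is the genes' own strand, and capitals mark the bases of a match.
REL, chr2:60881482-60881573: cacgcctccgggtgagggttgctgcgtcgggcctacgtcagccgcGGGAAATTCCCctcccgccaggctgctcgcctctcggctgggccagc
NFKB1, chr4:102501265-102501358: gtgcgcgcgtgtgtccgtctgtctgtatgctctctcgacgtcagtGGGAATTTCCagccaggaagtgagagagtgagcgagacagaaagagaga
NFKB2, chr10:102394426-102394554: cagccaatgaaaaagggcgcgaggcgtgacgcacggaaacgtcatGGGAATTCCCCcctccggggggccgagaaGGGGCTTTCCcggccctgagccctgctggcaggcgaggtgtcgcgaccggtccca
The match of NFKB1 began 49 bases before the start site and that of REL 47 bases before it, where 2 matches overlap on opposite strands. In NFKB2 the matches began 107, 106 and 78 bases before the second of its 3 listed start sites. In the window of the third, which is not printed, GGGGCTTCCC began 176 and GGGACTTTCC 21 bases before the start site. Only windows with a match were printed, and a window reaches no more than 250 bases before a start site. That the printed matches lie close to a start site is therefore set by this choice. Their relation to the ratios was not tested. A match is a run of letters and was not measured as a binding site.

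Of 68 possible values, 61 were present, 40 below 0 and 21 above 0, from -1.127 to 0.902. A value was missing on at least 1 array for 5 of the 17 probes, 29.4%, against 33.2% of all named probes. Of the 12 probes with 4 values, 4 were below 0 on all arrays, namely 1 of NFKB1, both of REL and 1 of NFKB2, against 24.5% of all probes. No subunit probe was above 0 on all arrays, against 15.5%. Values on both sides of 0 occurred among the probes of all 4 genes.

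**Figure D1:**
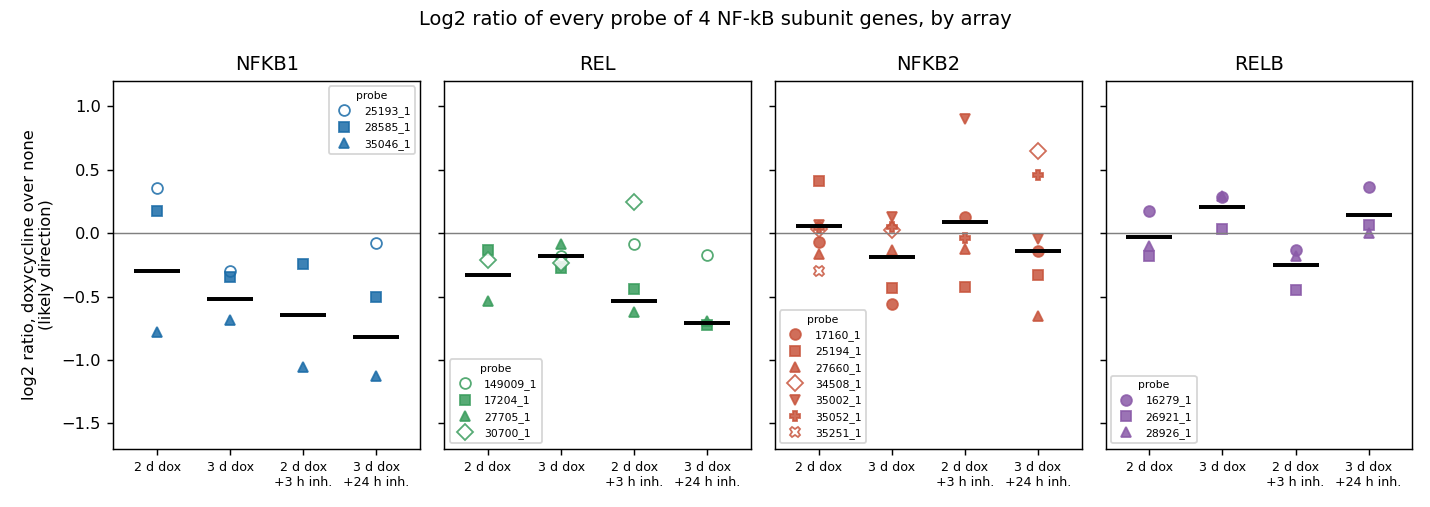
Log2 ratio (y axis, doxycycline over none in the likely direction) of each probe of NFKB1, REL, NFKB2 and RELB on the 4 arrays (x axis), with filled symbols for probes with 4 values, open symbols for probes lacking one, and a black bar for the mean of the filled symbols. NFKB1 probe 35046_1 is at or below -0.687 on every array, and the probes of NFKB2 spread from -0.423 to 0.902 on the 3 h inhibitor array.

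NFKB1, the gene of p105 and p50, had the lowest gene means of the 4 on 3 of the arrays. Averaged over its 2 probes with 4 values, its log2 ratio was -0.30 on the 2-day, -0.52 on the 3-day, -0.65 on the 3 h inhibitor and -0.82 on the 24 h inhibitor array. Both arrays with inhibitor were lower than both arrays without it, so the groups did not overlap, a pattern seen in 11.2% of all genes. The mean was -0.41 ± 0.15 (SD, n = 2) without and -0.73 ± 0.12 with inhibitor, 1.33-fold and 1.66-fold lower. A gene was called at an adjusted p under 0.05 in limma, a linear model fitted to all 3589 genes and adjusted by Benjamini-Hochberg. A gene fell or rose with inhibitor if its mean ratio on the inhibitor arrays was called below or above 0. That compares induced with uninduced cells and does not measure an effect of MLN120b. NFKB1 fell with inhibitor (adjusted p = 0.0277), and its mean without inhibitor did not pass (limma adjusted p = 0.309).

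The probes of NFKB1 disagreed in size. Probe 35046_1 had -0.776, -0.687, -1.052 and -1.127 in the same order of arrays, and on each of them at most 3.2% of probes with a value there were lower. Probe 28585_1 had 0.172, -0.346, -0.241 and -0.503, above 0 on the 2-day array and below 0 on the others. Probe 25193_1 had 0.353, -0.296 and, on the 24 h inhibitor array, -0.075, with no value on the 3 h inhibitor array. All values of NFKB1 outside the 2-day array were thus below 0, but their size came mostly from 1 probe. The SD between the 2 complete probes was 0.67 on the 2-day array, larger than in 99.5% of the 1723 genes with several such probes, and 0.24 on the 3-day array, larger than in 70.3%. Fitted as single probes, 35046_1 fell with inhibitor at -1.09 (limma adjusted p = 0.00253) and stood at -0.73 without it (adjusted p = 0.0543). Probe 28585_1 had -0.37 with inhibitor and did not pass (limma adjusted p = 0.164). With 25193_1 included where present, the gene mean with inhibitor was -0.61 and the call was lost (limma adjusted p = 0.0562). That average holds different probes on different arrays. The annotation lists the same transcript for all 3 probes and gives no position within it, so which part of the transcript each one reads is not known here.

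REL, the gene of c-Rel, lay close to NFKB1 on the inhibitor arrays. Its log2 ratio over 2 complete probes was -0.33 on the 2-day, -0.18 on the 3-day, -0.53 on the 3 h inhibitor and -0.71 on the 24 h inhibitor array. The 3-day array was its highest value, and again both inhibitor arrays were below both others, as in 11.2% of all genes. The mean was -0.26 ± 0.11 (SD, n = 2) without and -0.62 ± 0.12 with inhibitor, which is 1.19-fold and 1.54-fold lower. REL fell with inhibitor (limma adjusted p = 0.0385) and did not pass without it (adjusted p = 0.473).

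The complete REL probes agreed better than those of NFKB1. Probe 17204_1 had -0.129, -0.277, -0.444 and -0.722. Probe 27705_1 had -0.535, -0.083, -0.619 and -0.691. Both were below 0 on all arrays, and on the 24 h inhibitor array they differed by 0.031. On the 2-day array they differed by 0.406, and their SD of 0.29 was larger than in 89.3% of genes with several such probes. As single probes both fell with inhibitor, 17204_1 at -0.58 (limma adjusted p = 0.0325) and 27705_1 at -0.66 (adjusted p = 0.0266). The incomplete probes lay nearer 0: 149009_1 had -0.18, -0.085 and -0.173 with none on the 2-day array, and 30700_1 had -0.211, -0.235 and, on the 3 h inhibitor array, 0.246. With the incomplete probes included where present, the REL mean with inhibitor was -0.38 and did not pass (limma adjusted p = 0.123). The REL call thus rests on the probes with 4 values, and the wider average holds different probes on different arrays.

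With inhibitor 2 of the 4 subunit genes therefore fell, NFKB1 and REL, and none rose, where 3.04% of all genes fell and 1.53% rose. As single probes 3 of 12 fell, against 6.27% of 9788 probes. Without inhibitor limma called 0% of all genes, and 0 of the 4, although 400 of 3589 genes had an unadjusted p under 0.05, among them NFKB1 (unadjusted p = 0.0113). The calls of NFKB1 and REL ended when either the 2-day or the 3-day array was left out (limma adjusted p = 0.0622 for NFKB1 and 0.0795 for REL, the same for either array), and that of REL also without the 24 h inhibitor array (0.109). In such fits the group left with 1 array is assumed to vary like the other group, and 1 residual degree of freedom remains. The REL call was lost too after arrays were scaled to equal spread (adjusted p = 0.0613). That scaling instead called NFKB1 without inhibitor (mean -0.48, limma adjusted p = 0.0429).

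NFKB2, the gene of p100 and p52, had 5 complete probes whose mean stayed near 0. It was 0.055 on the 2-day, -0.19 on the 3-day, 0.089 on the 3 h inhibitor and -0.14 on the 24 h inhibitor array. Both 2-day time points were slightly above and both 3-day time points below 0, with and without inhibitor alike. The mean was -0.068 ± 0.17 (SD, n = 2) without inhibitor and -0.0265 ± 0.16 with it. Neither passed (limma adjusted p = 0.891 and 0.91), and the 95% interval of the mean with inhibitor ran from -0.32 to 0.27.

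Behind that mean the NFKB2 probes spread widely. On the 3 h inhibitor array they ran from -0.423 (25194_1) to 0.902 (35002_1), and on the 24 h inhibitor array from -0.65 (27660_1) to 0.648 (34508_1). The SD among the complete probes on the 3 h inhibitor array, 0.50, was larger than in 94% of genes with several probes. Probe 27660_1 was below 0 on all 4 arrays, with -0.165, -0.134, -0.125 and -0.65. Probe 35002_1 had 0.062, 0.127, 0.902 and -0.046, so its high value belonged to 1 array. Probe 25194_1 had 0.412 on the 2-day array and -0.434, -0.423 and -0.332 on the others. Probe 17160_1 had -0.072, -0.562, 0.129 and -0.137, and 35052_1 had 0.037, 0.05, -0.04 and 0.457. Of the incomplete probes 34508_1 had 0.034, 0.023 and, on the 24 h inhibitor array, 0.648, and 35251_1 had a value on the 2-day array alone, -0.295. No NFKB2 probe passed in either group, and the smallest limma adjusted p was 0.139, for 27660_1 with inhibitor. A mean near 0 over probes that disagree this much does not show that the transcript was unchanged.

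RELB, the gene of the alternative subunit RelB, had 3 complete probes that shared a sign on every array but the 2-day one. Its mean was -0.033 on the 2-day, 0.20 on the 3-day, -0.25 on the 3 h inhibitor and 0.14 on the 24 h inhibitor array. All 3 probes were below 0 on the 3 h inhibitor array (-0.131, -0.45 and -0.178 for 16279_1, 26921_1 and 28926_1). All 3 were above 0 on the 3-day array (0.288, 0.036 and 0.29) and on the 24 h inhibitor array, where they had 0.368, 0.062 and 0.001. On the 2-day array they had 0.178, -0.178 and -0.1. The groups with and without inhibitor overlapped, and the time points of each group lay further apart than the group means. The mean was 0.086 ± 0.17 (SD, n = 2) without and -0.055 ± 0.28 with inhibitor, and neither passed (limma adjusted p = 0.873 and 0.825). From the 2-day to the 3-day time point RELB moved by 0.24 without and 0.40 with inhibitor, and NFKB1 by -0.21 and -0.17. With 1 array for each time point and inhibitor status, a change with time has no replicate check. The inhibitor arrays also differ in hours of inhibitor, 3 h or 24 h, which cannot be told apart from the days of doxycycline.

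**Figure D2:**
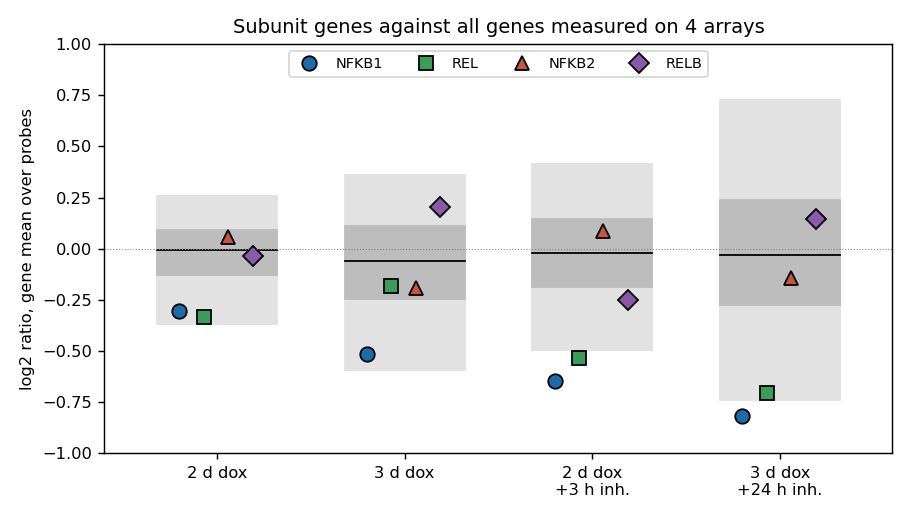
Mean log2 ratio of each subunit gene (coloured symbols, y axis) on each array (x axis) against all 3589 genes, with light boxes for the 5th to 95th percentile, dark boxes for the 25th to 75th percentile and a line at the median. NFKB1 lies below the light box on both inhibitor arrays and REL on the 3 h inhibitor array, while NFKB2 stays inside the dark box on all 4 arrays.

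The place of each gene among all genes takes account of the wider ratios on the later and inhibitor arrays, whose median absolute deviation was 0.161, 0.262, 0.246 and 0.384. On the 2-day, 3-day, 3 h and 24 h inhibitor arrays in turn, 7.7%, 7.0%, 2.6% and 3.7% of genes were lower than NFKB1. For REL these shares were 6.5%, 32.4%, 4.0% and 5.9%. REL was thus among the lowest genes on 3 of the arrays and closer to the middle on the 3-day array. For NFKB2 the shares were 65.7%, 31.0%, 67.5% and 37.9%, and for RELB 43.6%, 85.7%, 17.9% and 67.8%. Over the 4 arrays NFKB1 and REL differed by a root mean square of 0.19, NFKB2 and RELB by 0.30, and pairs of one classical and one alternative subunit gene by 0.46 to 0.65. The median distance to all other genes was 0.603 for NFKB1, 0.498 for REL, 0.247 for NFKB2 and 0.305 for RELB. Of these pairs only NFKB1 and REL lay below the medians of both genes, so NFKB2 and RELB were not unusually alike.

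**Figure D3:**
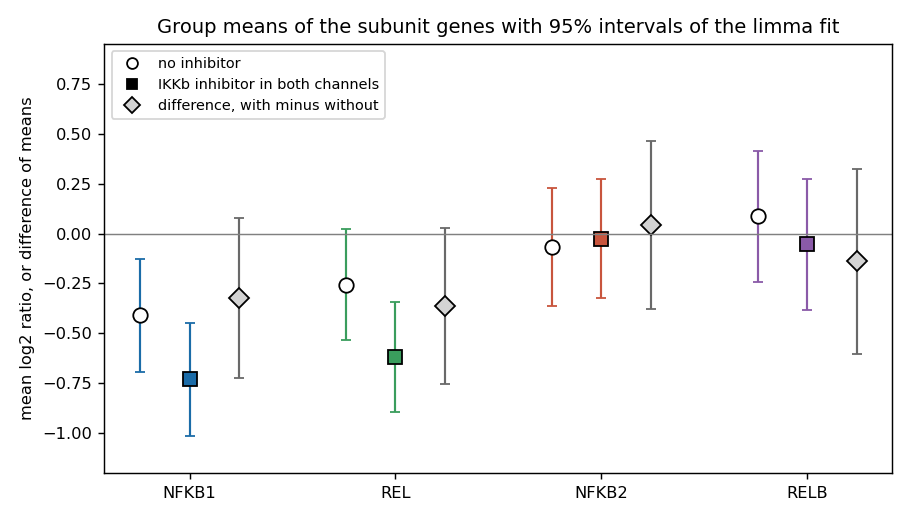
Mean log2 ratio of the 2 arrays without inhibitor (open circles) and the 2 with it (squares), and the difference of the means (grey diamonds), for each subunit gene, with bars for the 95% interval of the limma fit. The bars of NFKB1 in both groups and of REL with inhibitor lie below 0, and all 4 bars of the difference cross 0. These intervals are not adjusted for the number of genes.

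Whether the ratio differed when IKKb was inhibited is read from the difference of the group means. For NFKB1 it was -0.32 (SE 0.17, 95% interval -0.72 to 0.080), and inhibitor minus no inhibitor was -0.34 at 2 and -0.30 at 3 days of doxycycline. For REL it was -0.36 (SE 0.17, interval -0.75 to 0.028), with -0.20 at 2 and -0.53 at 3 days. Each 2-day difference here is for 3 h of inhibitor and each 3-day difference for 24 h. Days and inhibitor hours cannot be told apart in them. After arrays were scaled to equal spread, the difference was smaller, -0.11 for NFKB1 and -0.16 for REL. All 4 complete probes of NFKB1 and REL had lower ratios with inhibitor at both days. So had 5 of the 12 complete subunit probes in all, against 25.9% of all probes. The fifth was 28926_1 of RELB. Among the incomplete probes the ratio of 25193_1 of NFKB1 was higher with inhibitor at 3 days by 0.221. That of 30700_1 of REL was higher at 2 days by 0.457. For NFKB2 the difference was 0.041 (SE 0.18, interval -0.38 to 0.46) and for RELB -0.14 (SE 0.20, interval -0.61 to 0.33). None passed: the limma adjusted p was 0.989 for REL and 0.999 for NFKB1, NFKB2 and RELB, and 0 of 3589 genes were called, with 173 at an unadjusted p under 0.05. The intervals hold differences of over 0.3 in size for every subunit gene, so the calls of NFKB1 and REL with inhibitor and not without it do not show that the hairpin's effect differed between the groups. CHUK, the hairpin's own target, stood at -0.73 without and -1.15 with inhibitor. Its difference was -0.42, with -0.71 at 2 and -0.14 at 3 days, and did not pass (limma adjusted p = 0.989). Whether the depth of CHUK lowering has a part in the subunit differences was not tested.

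RELA, the gene of the p65 partner of p50, is the remaining Rel gene and had 2 probes. Its means were -0.091 ± 0.032 (SD, n = 2) without and -0.19 ± 0.15 with inhibitor, neither of which passed (limma adjusted p = 0.825 and 0.326). One of its probes was below 0 on all 4 arrays, down to -0.546 on the 24 h inhibitor array, and the other lay between -0.047 and 0.145.

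Around the subunits, 34 of 43 listed pathway genes had probes and 32 had values on all 4 arrays. With inhibitor 7 of the 32 fell and none rose, where 3.04% of all genes fell and 1.53% rose, and these shares are the background of the counts by list below too. The 7 include CHUK, the hairpin's own target, whose sign helped to choose the direction. The median of the 32 was -0.11, against -0.0097 over all genes. Without inhibitor none passed, and the median was -0.11 against -0.028 over all genes. Of 5 inhibitors of NF-kB, NFKBIA, the gene of IkBa, fell to -0.83 ± 0.067 with inhibitor (limma adjusted p = 0.0229), while NFKBIB (0.042), NFKBIE (-0.24), NFKBID (-0.19) and the nuclear IkB protein gene BCL3 (0.11) did not pass. NFKBIA without inhibitor stood at -0.29. These genes were not tested against each other.

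Among 6 kinase genes CHUK was the only one that fell with inhibitor, at -1.15 ± 0.20 (limma adjusted p = 0.013). IKBKG, the regulatory subunit of the IKK complex, stood at 0.42 on 1 probe (adjusted p = 0.0674) and MAP3K14, the gene of NIK, at -0.0275. Of 11 genes of the classical arm 3 fell: TAB2, an adaptor of the TAK1 kinase, at -1.13, TNFAIP3, the gene of the feedback inhibitor A20, at -0.88, and the deubiquitinase gene CYLD at -0.67. TAB2 and CYLD rested on 1 complete probe each. With inhibitor 5 of the 11 genes stood above 0, up to 0.53 for BCL10, and none of these passed.

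The alternative arm had 9 measured genes of 14 listed, and 2 of them fell with inhibitor. The BAFF receptor gene TNFRSF13C had -0.45, -0.49, -0.92 and -0.73 on its 1 probe, a mean of -0.83 ± 0.13 with inhibitor (limma adjusted p = 0.0209). CXCL13, a B cell chemokine gene known as a target of the alternative arm, had -0.11, -0.38, -0.75 and -1.85 over 2 probes, both below 0 on all arrays. Its mean with inhibitor was -1.30 ± 0.78 (limma adjusted p = 0.0359). Its inhibitor arrays differed widely: the 3 h array alone had -0.746, and the 24 h array lay lower. TRAF3 (-0.16) and BIRC2 (-0.078), which hold NIK low, and the receptor genes CD40 (-0.12) and LTBR (0.053) did not pass with inhibitor. Of the 9 genes 3 stood above 0 with inhibitor, up to 0.37 for TNFRSF17, and none of these passed. NFKB2 and RELB, the subunit genes of this arm, lay near 0 while these 2 genes of it fell, and genes of both arms were among the called. Of the 7 called pathway genes CHUK and TAB2 kept their calls when the 2-day or the 3-day array was left out, while NFKBIA, TNFAIP3, CYLD, TNFRSF13C and CXCL13 did not (limma adjusted p from 0.053 to 0.0717).

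**Figure D4:**
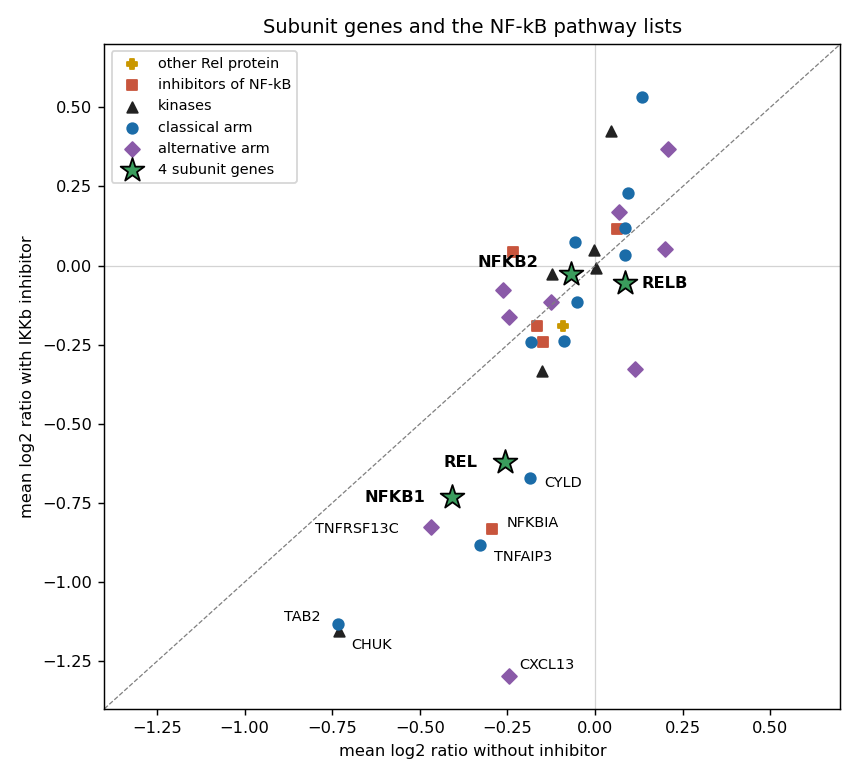
Mean log2 ratio without inhibitor (x axis) and with it (y axis) of the 4 subunit genes (stars) and of 32 listed pathway genes (other symbols, by list), with names at the subunit genes and at pathway genes called with inhibitor and a dashed line of equal values. NFKB1 and REL lie below the dashed line among the called genes, NFKB2 and RELB near the centre.

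By root mean square distance over the 4 arrays, the genes most like NFKB1 were the pseudogene CUTALP (0.0708), the lymphoid transcription factor gene IKZF1 (0.078) and SMC5, of a chromosome maintenance complex (0.0837). Their log2 ratios ended at -0.79, -0.73 and -0.82 on the 24 h inhibitor array, beside -0.82 for NFKB1. Nearest to REL were DAXX (0.0889), MREG (0.103) and STAT3, a transcription factor gene of cytokine signalling (0.104). The median distance of all other genes was 0.603 from NFKB1 and 0.498 from REL. Nearest to NFKB2 were IL4R, NDUFC2 and TM4SF1 (0.0204 to 0.0274), and to RELB TST, ALPP and COL19A1 (0.0387 to 0.0407). Many genes lie near 0, which makes small distances common there, and with 4 arrays the likeness is a description only.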

How the data were processed

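The deposited table holds 1 value per probe and array, read as log2 ratios of the channels. Its base and direction are not stated, and for background correction, normalization and spot filtering by the authors the labels give nothing. How far signals stood above background is unknown, and precision is limited by the number of arrays. Per the labels, doxycycline-treated cDNA was coupled to Cy5 and the reference to Cy3, with no dye swap. Base 2 was taken because log10 would make the range implausibly wide, and the direction from the usual Cy5 over Cy3 order and the sign of CHUK.

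Of 15246 probes, 10169 had 1 symbol, 4 several and 5073 none. Gene IDs matched RefSeq for 10128 probes, and the rest kept their listed symbol. Probes with a value on all 4 arrays were averaged per gene (3589 genes) and fitted in limma 3.58.1 (R 4.3.3, lmFit and eBayes, 2 residual and 4.98 prior degrees of freedom) with a mean for each group. Tests were two-sided, each mean against 0 and their difference. A group's 2 arrays differ in time, and no label says that they came from separate cultures, so the p-values reflect the spread among these 4 arrays, which may be technical. The fit was tested on simulated data.

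Named are all subunit probes, CHUK, called members and a fixed set of the pathway lists that had probes, and the 3 genes nearest to each subunit gene. NFKB1 and REL, the members and the lists were chosen with earlier results of these data known, so their calls are no independent support. Alternatives were centring, scaling, incomplete probes, single probes, the median of probes, doxycycline day as a block, a robust prior, a threshold of 0.10 and leaving out each array.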

Additional observations from a re-analysis of the deposited data

How the results depend on the processing

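NFKB1 and REL kept means below 0 in both groups, and a difference below 0, under all 11 gene-level alternatives. Several of these could not change a sign. The median of 2 probes, the robust prior, the threshold of 0.10 and the day block left these means as they were. Leaving out an array left the mean of the other group unchanged. The threshold of 0.10 also could not lose a call made at 0.05. NFKB1 ranged from -0.82 to -0.60 with inhibitor and REL from -0.71 to -0.38. The difference ranged from -0.43 to -0.11 for NFKB1 and from -0.45 to -0.13 for REL. The call with inhibitor was lost in 3 of 11 for NFKB1 and 5 of 11 for REL. NFKB2 and RELB passed under none, and their signs were not stable. The NFKB2 mean with inhibitor turned to 0.0393 with incomplete probes, and its difference to -0.04 with the median of probes. When arrays were left out, NFKB2 ranged from -0.1906 to 0.0548 without and from -0.1416 to 0.0886 with inhibitor, and its difference from -0.0813 to 0.1641. RELB ranged from -0.0333 to 0.2047 without and from -0.253 to 0.1437 with inhibitor, and its difference from -0.3387 to 0.058. The signs turned without the 3-day array, without the 3 h inhibitor array or, for NFKB2 with inhibitor, without the 24 h inhibitor array.

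Over all genes, the 0 calls without inhibitor became 191 (9 higher, 182 lower) after scaling to equal spread, 24 as single probes, 6 at a threshold of 0.10, and 0 to 231 when arrays were left out. The 164 calls with inhibitor became 979 as single probes, 590 at 0.10, and 34 to 858 when arrays were left out. The 0 calls of the difference became 4 with incomplete probes and 0 to 119 when arrays were left out. The single-probe counts are probes out of 9788, 0.245% without and 10% with inhibitor, where 0% and 4.57% of 3589 genes were called. With the doxycycline day as a replicate block, 56 genes were called without and 908 with inhibitor, and no subunit call changed. The day deviations of the groups correlated over genes (r = 0.451), but 2 pairs are too few to show that the days pair the arrays.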
